A study of Mus musculus with 2 samples.

Results

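The hairpins described here are 8 microRNA genes of the imprinted Dlk1-Dio3 region of mouse chromosome 12, Mir337, Mir540, Mir665, Mir431, Mir433, Mir127, Mir434 and Mir136. They were taken by name from the 2202 annotated microRNA genes of the tables, and form the proximal group of hairpins on the strand opposite Rtl1. Small RNA was sequenced from the adrenal gland, whose cortex makes steroid hormones and whose medulla makes catecholamines, of male B6CASTF1/J mice aged 25 days. These animals are first-generation hybrids of C57BL/6J and CAST/EiJ, and the counts were not split by parental allele. The series has 1 group of 2 biological replicates, with no treatment and no second group. The labels carry separate animal numbers for the replicates but a single donor entry, so the SDs describe the spread between these libraries, which can be technical, and the p-values rest on counting error in their reads.

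Imprinted genes are expressed from the copy inherited from 1 parent. In the Dlk1-Dio3 region the protein-coding genes Dlk1, Rtl1 and Dio3 are expressed from the paternal chromosome, and the noncoding transcripts and small RNAs, among them Meg3, Rian and the microRNA hairpins, from the maternal chromosome. Rtl1 is a gene derived from a retrotransposon, known for its role in the placenta. The hairpins on the strand opposite its coding sequence give microRNAs that match the Rtl1 messenger without a mismatch, and are known to direct its cleavage.

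All 8 hairpins lie on the plus strand within 9600 bases of chromosome 12 (mm10). By GENCODE M21 only 5 of the 8 face the annotated Rtl1 gene, which runs on the minus strand from 109589193 to 109600330. Mir431 (109590447 to 109590537), Mir433 (109591715 to 109591838), Mir127 (109592846 to 109592915), Mir434 (109594506 to 109594599) and Mir136 (109595327 to 109595388) each lie wholly opposite the coding part of the same Rtl1 exon. Mir337 (109585789 to 109585885), Mir540 (109586080 to 109586146) and Mir665 (109586314 to 109586407) lie 3308, 3047 and 2786 bases beyond the 3′ end of that gene model. The RefSeq gene model of Rtl1 is wider, from 109564900 to 109604418, and covers all 8. No same-strand gene of GENCODE M21 overlaps any of the 8, which lie between the end of Meg3 at 109571726 and the start of Rian at 109603940.

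Mature products of the hairpins that the results turn on are shown first. All 8 hairpins were found in RefSeq (GRCm38.p6), each with a 5′ and a 3′ arm product. Capitals mark the seed, bases 2 to 8, the stretch through which a microRNA mainly recognises its targets.
mmu-miR-127-5p: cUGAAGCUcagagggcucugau
mmu-miR-127-3p: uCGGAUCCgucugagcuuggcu
mmu-miR-433-3p: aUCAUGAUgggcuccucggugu
mmu-miR-431-5p: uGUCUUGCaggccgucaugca
mmu-miR-431-3p: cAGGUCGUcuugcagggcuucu
mmu-miR-434-5p: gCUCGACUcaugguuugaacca
mmu-miR-434-3p: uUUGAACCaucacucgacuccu
mmu-miR-337-3p: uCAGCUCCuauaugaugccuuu
mmu-miR-136-5p: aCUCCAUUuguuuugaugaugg
The 16 products of the 8 hairpins have 16 different seeds, so the group is no seed family. Of the 16 seeds, 1 was shared with another mouse microRNA in the RefSeq table, that of mmu-miR-540-3p with mmu-miR-6915-5p. Mir6915 had 8 counts in replicate 1 and 4 in replicate 2, against 1609 and 1860 counts for Mir540.

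For the 5 hairpins that face the Rtl1 exon, the complement of the whole hairpin was found in the Rtl1 messenger of GENCODE M21, and with it a full-length match to each of their 10 arm products. Positions are counted from 1 at the start of that messenger, which is 6358 bases long. The sites for products of the most abundant hairpin, Mir127, and of Mir431 and Mir434, of which the first had a lower and the second a higher share of the group in replicate 2, are given below in messenger sense, with the bases that pair with the seed in capitals.
Rtl1 at 2642 for mmu-miR-127-3p: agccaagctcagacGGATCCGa
Rtl1 at 5072 for mmu-miR-431-5p: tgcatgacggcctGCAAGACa
Rtl1 at 965 for mmu-miR-434-3p: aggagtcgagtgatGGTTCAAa
The seed match of mmu-miR-127-3p, GGATCCG, occurred once in the messenger, at this site. That of mmu-miR-431-5p, GCAAGAC, occurred 3 times, of which 2 lay within the stretch complementary to Mir431. That of mmu-miR-434-3p, GGTTCAA, occurred 4 times, of which 3 lay within the stretch complementary to Mir434. These searches read the messenger strand only. Among 4165 protein-coding transcripts of like length (0.8 to 1.25 times that of Rtl1), 11.2% held GGATCCG, 35.7% held GCAAGAC and 23.5% held GGTTCAA.

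In the Mir434 hairpin itself a stretch of 13 bases occurs 2 times, shown in capitals.
Mir434 hairpin: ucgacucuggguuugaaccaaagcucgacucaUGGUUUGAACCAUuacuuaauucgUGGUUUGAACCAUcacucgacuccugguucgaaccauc
The shorter stretch GAACCA, chosen after the hairpin had been seen, occurs 4 times in it and in 0 of the other hairpins of the group. The Mir127 hairpin, with its arm products in capitals, is shown for comparison.
Mir127 hairpin: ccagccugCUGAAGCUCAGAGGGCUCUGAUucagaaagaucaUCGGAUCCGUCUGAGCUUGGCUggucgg
The 8 hairpins ran from 62 bases (Mir136) to 124 bases (Mir433), with a GC content from 40.3% (Mir136) to 61.2% (Mir540). Their minimum folding energies by RNAfold ran from -49.4 kcal/mol for Mir337 to -28.2 kcal/mol for Mir136.

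Counts were of reads that mapped to a single place, so that a hairpin with near-identical copies would be undercounted. None of the 8 shares 20 or more bases in the same orientation with another hairpin of the tables, and the longest shared stretch is 13 bases, between Mir540 and Mir6915. Levels are counts on the hairpin's own strand per 1000000 such counts over all microRNA genes (CPM). They were not divided by hairpin length, since the reads come from short mature products. The tables give 1 value per hairpin and do not split the 5′ and 3′ arms.

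Replicate 1 had 3588361 assigned sense counts and replicate 2 had 4541373. A hairpin with 0 counts could have stood as high as 0.836 CPM (3 counts) in the first and 0.661 CPM in the second. Intervals are exact (Clopper-Pearson, 95%) and, like these limits, cover counting error only. The libraries differed in hairpins known from other tissues. Mir122, the main hepatocyte microRNA, made up 0.0892% of the counts in replicate 1 and 19.8% in replicate 2. Of the 6 hepatocyte markers, Mir122, Mir192, Mir194-2 and Mir148a reached 10 counts in both libraries, and the list summed to 0.157% of the counts in the first library and 19.996% in the second. Of the 9 striated muscle markers none reached 10 counts in both libraries, and Mir206 had 3540 counts in replicate 1 and 3 in replicate 2. Mir133a-2 and Mir133b had 0 counts in both libraries. Among markers of the tissue itself, the endocrine and chromaffin list, led by Mir375, held 4.01% and 3.38% of the counts, with all 5 members above 10 counts. The direction of this sum turned with Mir122 left out of the totals, where that list held 4.02% and 4.22%. The binomial test described below, with those totals, called 2 of the 5 higher in replicate 2 and 3 higher in replicate 1. Over all genes tested it called 50% and 21.3%. No hairpin of these lists is exclusive to adrenal cells. Of the 8 neuronal markers, the 6 of the Mir9 and Mir124a groups had 0 or 1 count, while Mir128-1 had 272 and 204 counts and Mir128-2 had 29 and 11. The Mir9 and Mir124a hairpins are numbered copies as well, whose reads can map to several places, so their counts do not show absence. Lists of other cells of the gland differed as well. The adrenal cortex list held 3.48% and 2.23% of the counts, the stroma and smooth muscle list 4.98% and 3.30%, and the leukocyte list 0.361% and 0.198%. With Mir122 left out of the totals these were 3.49% and 2.78%, 4.98% and 4.12%, and 0.361% and 0.247%. Within the cortex list Mir125a was higher in replicate 2, at 3093 and 5781 CPM. The other members of that list, Mir21a (18167 and 7728 CPM), Mir335 and Mir320, were lower there. Within the stroma list Mir145a stood at 3953 and 1162 CPM and Mir214 at 248 and 1088 CPM in the first and second library. In bulk tissue, fewer cells of a type and less RNA per cell cannot be told apart.

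All 8 hairpins were present in both libraries, each with at least 138 counts, and Mir127 held most of the group's counts. Together they held 1.99% of all counts in replicate 1 (71575 counts, interval 1.98 to 2.01) and 1.84% in replicate 2 (83575 counts, 1.83 to 1.85), a mean of 1.92% ± 0.109 (SD, n = 2). The means of the hairpins spanned a 332-fold range, from 13473 CPM for Mir127 to 40.6 CPM for Mir665. Of the 8, 6 lay above 110.7 CPM, the median of the 352 genes that reached 10 counts in each library, and Mir136 and Mir665 lay below it.

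**Figure D1:**
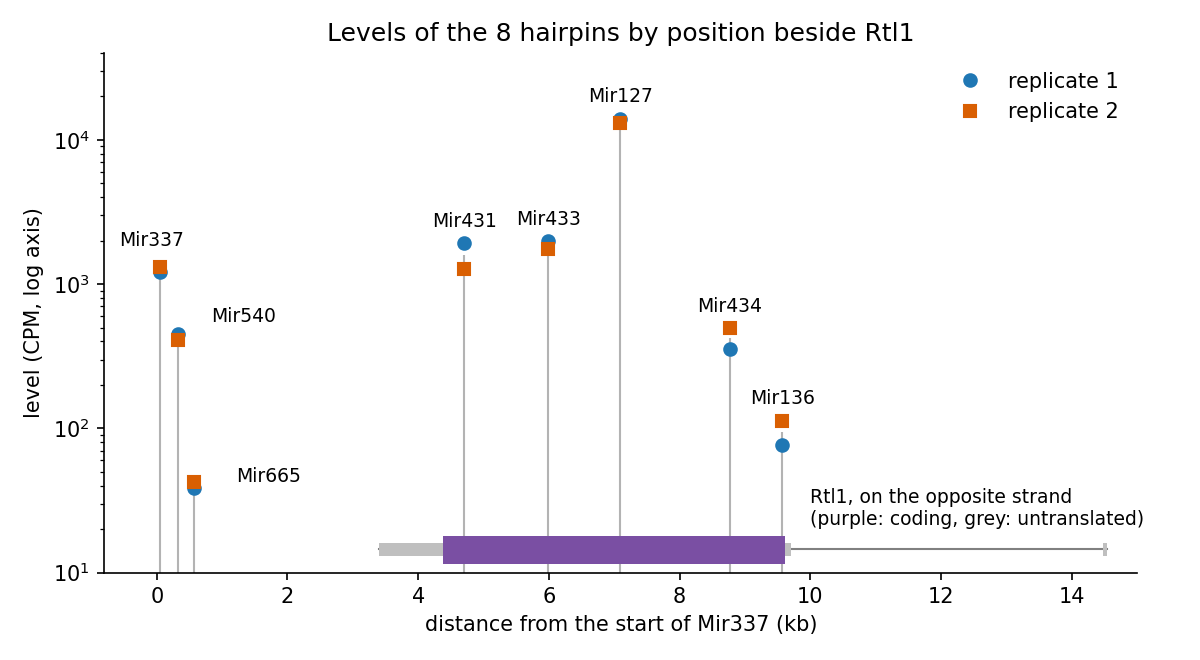
Level of each hairpin in CPM (log axis) against the distance of its middle from the start of Mir337 in kb. Circles are replicate 1, squares replicate 2, the grey stems reach the mean, and the bar at the bottom is the GENCODE M21 Rtl1 gene on the opposite strand, with its coding part in purple. Mir127, at 13926 and 13021 CPM, stands above its neighbours on both sides, and Mir337, Mir540 and Mir665 lie outside the bar.

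Mir127 (ENSMUSG00000070076.2), known among other things for repressing Bcl6, stood at 13926 CPM in the first replicate and 13021 CPM in the second. Its mean of 13473 CPM ± 640.2 (SD, n = 2) ranked 19th of all microRNA genes. Both libraries gave nearly the same level, and the next member, Mir433, was lower by 7.05-fold in replicate 1 (6.88 to 7.23) and by 7.48-fold in replicate 2 (7.30 to 7.65).

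Mir433 (ENSMUSG00000070072.1) stood at 1975 CPM in the first replicate and 1742 CPM in the second. Mir431 (ENSMUSG00000070080.1), studied in muscle stem cells and in neurons, had 1918 CPM and 1267 CPM. Mir337 (ENSMUSG00000065526.4), the first hairpin of the group along the chromosome, had 1208 CPM and 1315 CPM. The means of these 3 followed in the order Mir433, Mir431, Mir337, at 1858 CPM ± 165, 1592 CPM ± 461 and 1262 CPM ± 75.3 (SD, n = 2). Mir431 overlapped both Mir433 and Mir337 over the libraries, whereas Mir433 lay above Mir337 in each. In replicate 1 the ratio of Mir433 to Mir431 counts was 1.03 (0.996 to 1.06), an interval that holds 1. In replicate 2 it was 1.38 (1.33 to 1.42), and there Mir431 stood at 0.963 of Mir337 (0.929 to 0.999).

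Mir540 (ENSMUSG00000072900.2) stood at 448 CPM in the first library and 409.6 CPM in the second, a mean of 429 CPM ± 27.5 (SD, n = 2). Mir434 (ENSMUSG00000070133.1), the hairpin with the internal repeat, had 356 CPM and 494 CPM, a mean of 425 CPM ± 97.5. Their order turned between the libraries, with Mir434 at 0.795 of Mir540 in replicate 1 (0.738 to 0.856) and at 1.21 times Mir540 in replicate 2 (1.13 to 1.28).

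The lowest members were Mir136 (ENSMUSG00000104858.1), with 76.1 and 113 CPM, and Mir665 (ENSMUSG00000076313.1), with 38.5 and 42.7 CPM in replicates 1 and 2. Mir665 rested on 138 and 194 counts, the fewest of the group. Its 95% intervals, 32.3 to 45.4 CPM and 36.9 to 49.2 CPM, overlapped between the libraries. Of the 28 pairs among the 8 hairpins, 26 kept their order in both libraries. The exceptions were Mir431 with Mir337 and Mir434 with Mir540. Divided by hairpin length, the mean levels kept the order except that Mir431 stood above Mir433.

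Neighbours along the chromosome ranged from near-equal to widely different in counts. Mir433 and Mir431 were nearly equal in replicate 1, as given above, whereas Mir431 exceeded Mir665 by 49.9-fold in replicate 1 (42.1 to 59.5) and by 29.6-fold in replicate 2 (25.7 to 34.4). Mir127 exceeded Mir434 by 39.1-fold (37.0 to 41.3) and 26.3-fold (25.3 to 27.5). Mir665 and Mir540 lie 167 bases apart, and Mir665 had 0.0858 of the counts of Mir540 in replicate 1 (0.0716 to 0.102) and 0.104 in replicate 2 (0.0895 to 0.121). Mir136 lies 727 bases from Mir434 and had 0.213 (0.187 to 0.243) and 0.229 (0.207 to 0.252) of its counts. For the last 2 pairs the intervals overlapped between the libraries, and for the others given here they did not. The 5 hairpins that face the Rtl1 exon held 91.5% of the group's counts in replicate 1 and 90.4% in replicate 2.

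By level alone, the genes nearest to Mir127 over the 2 libraries (smallest distance in log2(CPM + 1)) were Mir99a, with 13341 and 12030 CPM, Mir30e, with 16006 and 12993 CPM, and Mirlet7d, with 12679 and 18259 CPM. Nearest to Mir433 were Mir351, Mir320 and Mir324, at distances of 0.148, 0.155 and 0.287. Nearest to Mir431 were Mir146, Mir181d and Mir34c, at 0.260, 0.341 and 0.392. None of these 9 genes lies on chromosome 12, and a likeness over 2 libraries is a description only.

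The make-up of the group, each hairpin's share of the 8 hairpins' counts, does not depend on the library total. Mir127 held 69.8% of the group in replicate 1 (interval 69.5 to 70.2) and 70.8% in replicate 2 (70.4 to 71.1). Mir433 held 9.90% (9.68 to 10.1) and 9.46% (9.27 to 9.66), and Mir540 2.25% (2.14 to 2.36) and 2.23% (2.13 to 2.33). Of these 3 the intervals overlapped between the libraries for Mir540, and not for Mir127 and Mir433.

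The intervals of Mir431, Mir434, Mir136 and Mir337 did not overlap between the libraries either. Mir431 held 9.62% of the group in replicate 1 (9.40 to 9.83) and 6.88% in replicate 2 (6.71 to 7.06). Mir434 held 1.79% (1.69 to 1.89) and 2.69% (2.58 to 2.80), Mir136 held 0.381% (0.338 to 0.429) and 0.614% (0.562 to 0.669), and Mir337 held 6.06% (5.88 to 6.24) and 7.14% (6.97 to 7.32). Thus the share of Mir431 was lower, and those of Mir434, Mir136 and Mir337 were higher, in replicate 2. Mir665 held 0.193% and 0.232%, with overlapping intervals.

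**Figure D2:**
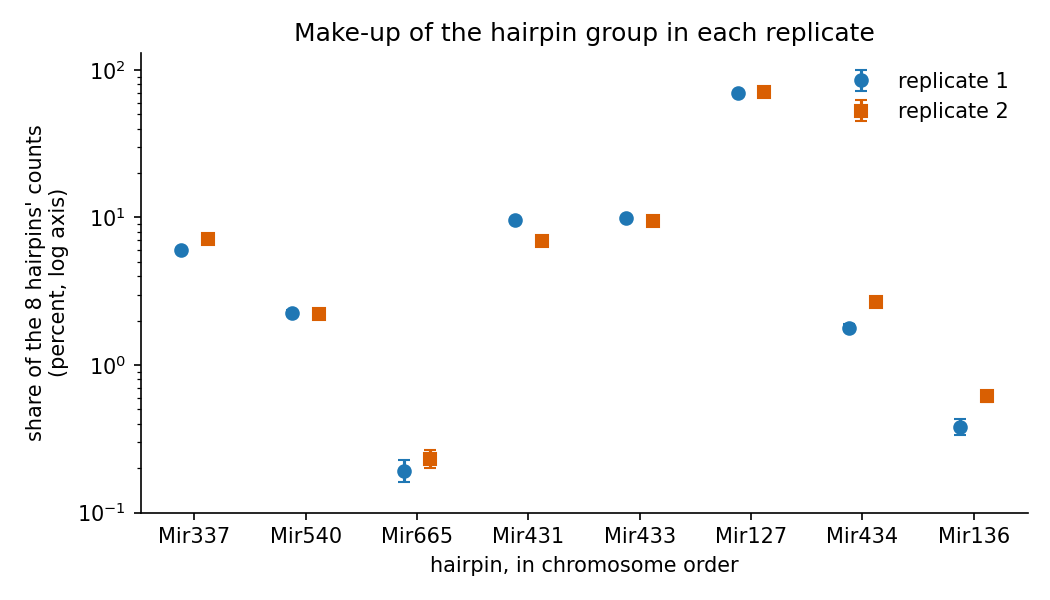
Share of the 8 hairpins' summed counts held by each (percent, log axis), in chromosome order, for replicate 1 (circles) and replicate 2 (squares). Bars are exact 95% intervals for counting error and are mostly smaller than the symbols. Mir127 is near 70% in both, and Mir431 lies lower and Mir434 and Mir136 lie higher in replicate 2.

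The widest changes in ratio joined Mir431 with the 2 hairpins at the other end of the exon. Mir434 had 0.186 of the counts of Mir431 in replicate 1 (0.175 to 0.197) and 0.390 in replicate 2 (0.372 to 0.410), a 2.10-fold change. Mir136 had 0.0397 (0.0350 to 0.0448) and 0.0892 (0.0813 to 0.0976), a 2.25-fold change. Of the 28 pairs, 19 changed by 1.5-fold or less between the libraries, and these 2 by more than 2-fold.

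To set the libraries against each other, each gene's counts were compared with the library totals by an exact two-sided binomial test, adjusted by Benjamini-Hochberg over all 352 genes tested, with a threshold of 0.05. The test compares the reads of these libraries, not conditions. It called 67% of all tested genes, and 7 of the 8 hairpins, which is read against that background. The 3 called higher in replicate 2 (30.4% of all tested genes were) were Mir136, Mir434 and Mir337. The 4 called higher in replicate 1 (36.6% of all tested genes were) were Mir431, Mir433, Mir540 and Mir127. The median log2 ratio was 0.01 over the 8 and -0.04 over all genes tested.

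Mir431 was 1.51-fold higher in replicate 1 (1.46 to 1.57, adjusted p = 3.74e-119, exact binomial test). Mir434 was 1.39-fold higher in replicate 2 (1.29 to 1.49, adjusted p = 1.11e-20, exact binomial test), and Mir136 was 1.48-fold higher there (1.28 to 1.73, adjusted p = 2.42e-07, exact binomial test). Mir337 was 1.09-fold higher in replicate 2 (1.05 to 1.13), while Mir433, Mir540 and Mir127 were 1.13-fold, 1.09-fold and 1.07-fold higher in replicate 1. Mir665, at 1.11 times its replicate 1 level (0.888 to 1.39), did not pass the test (adjusted p = 0.465, exact binomial test). Of the 8, 7 lay within 1.5-fold between the libraries, as did 61.1% of all 352 genes tested.

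The direction of the small differences changed with the total. Leaving Mir122 out of the totals moved every ratio by 0.32 on the log2 scale, and 71.3% of all genes tested were then called. All 8 hairpins were called with these totals, 7 as higher in replicate 2 (50% of all genes tested were) and Mir431 alone as higher in replicate 1 (21.3%). Mir127 was then 1.16-fold higher in replicate 2 (1.15 to 1.18), Mir433 1.10-fold (1.06 to 1.13) and Mir540 1.14-fold (1.06 to 1.22), each against its direction with the full totals. Mir431 was still 1.22-fold higher in replicate 1 (1.17 to 1.26), and Mir434 and Mir136 were 1.73-fold (1.61 to 1.85) and 1.85-fold (1.59 to 2.15) higher in replicate 2.

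Under each of 6 totals tried, Mir431 was called higher in replicate 1, and Mir434, Mir136 and Mir337 were called higher in replicate 2. The totals were those of all assigned counts, of all but Mir122, of all input reads and of the 8 hairpins, and those scaled by edgeR TMM factors and by DESeq2 size factors. With the counts of the 8 hairpins as total, where 65.1% of all genes tested were called, the ratio was 0.716 for Mir431 (0.691 to 0.741), 1.503 for Mir434 (1.40 to 1.61), 1.61 for Mir136 (1.39 to 1.87) and 1.18 for Mir337 (1.13 to 1.23). That total called 4 of the 8 higher in replicate 2 (36.9% of all genes tested were) and 2 higher in replicate 1 (28.1%). Mir127 had a ratio of 1.01 there (1.00 to 1.03, adjusted p = 0.0439, exact binomial test). With input reads as total 5 of the 8 were called (65.9% of all genes tested), 3 higher in replicate 2 (34.9%) and 2 higher in replicate 1 (31%). With DESeq2 size factors 6 of the 8 were called (65.9%), 3 in each direction (32.4% and 33.5%). The hepatocyte, muscle, cortex, stroma and leukocyte lists given above differ between the same libraries, and their part in these shifts was not tested beyond the change of total.

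**Figure D3:**
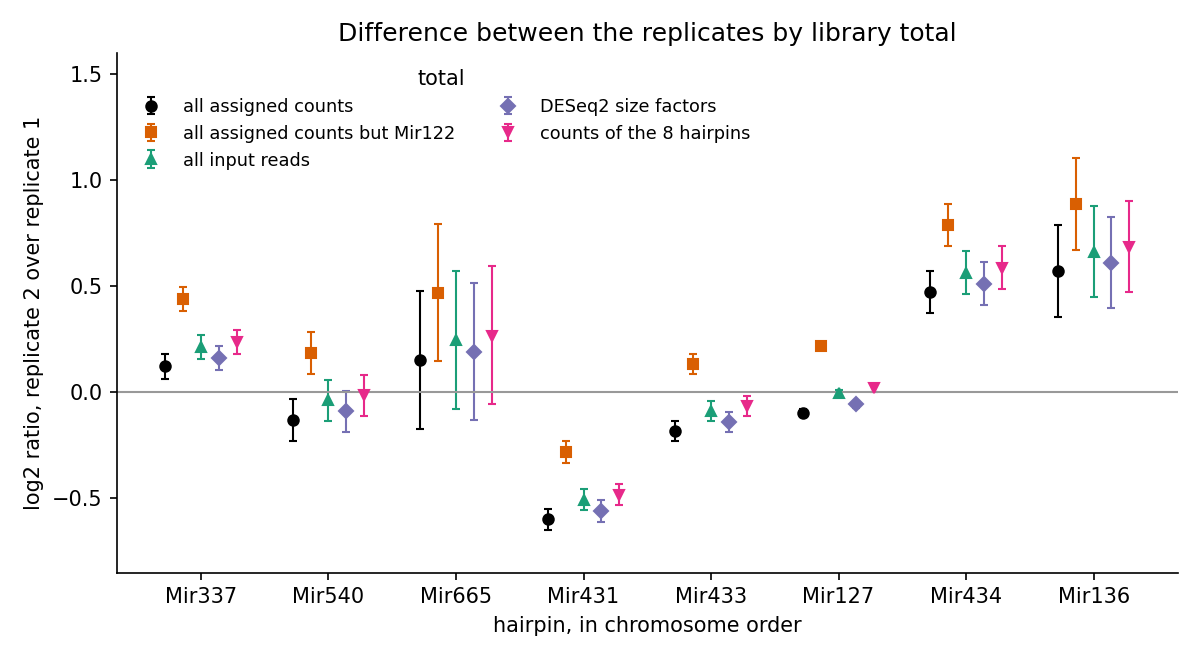
Log2 ratio of replicate 2 over replicate 1 for each hairpin in chromosome order, with 5 choices of library total as symbols (edgeR TMM factors, which coincide with the totals of all assigned counts, are left out). Bars are exact 95% intervals for counting error. Mir431 lies below 0 and Mir337, Mir434 and Mir136 above 0 with every total shown, while Mir127, Mir433 and Mir540 change side.

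Sense and antisense counts were compared at each hairpin, since Rtl1 is transcribed from the opposite strand. At the 4 hairpins that face the Rtl1 exon and no other hairpin, Mir431, Mir433, Mir127 and Mir434, there were 0 antisense counts beside 65219 sense counts in replicate 1, and 0 beside 75037 in replicate 2. A count of 0 allows an antisense share of up to 0.00460% and 0.00400% there. Mir540 and Mir665 also had 0 antisense counts in both libraries. The tables count short molecules only, and give no measure of the Rtl1 messenger.

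Antisense counts were present at the 2 hairpins that face an annotated hairpin on the minus strand, Mir337 opposite Mir3544 and Mir136 opposite Mir3071. Mir337 had 25 antisense counts beside 4336 sense counts in replicate 1 (0.573%, interval 0.371 to 0.845) and 71 beside 5971 in replicate 2 (1.18%, 0.919 to 1.48). Mir3544 itself was assigned 19 and 54 sense counts, which leaves 6 and 17 antisense counts of Mir337 outside the Mir3544 gene model. Mir136 had 3 antisense counts beside 273 sense counts, and 1 beside 513, at or under the 3 counts that a count of 0 allows. Mir3071 had the same 3 and 1 counts.

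The products of Mir337 and Mir3544 show the overlap of the strands, with the seed of each in capitals.
mmu-miR-337-3p: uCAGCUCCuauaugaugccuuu
mmu-miR-3544-5p: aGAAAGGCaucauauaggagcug
mmu-miR-3544-3p: aCUCCUGCaugacgccguuccc
Mir337 and Mir136 share a stretch of 60 bases or more in opposite orientation with these partners, and reads there are ambiguous where strand is not used. In the either-strand column Mir337 had 6 and 17 counts and Mir136 had 0 and 0, so the levels of both rest on the sense column. Of the other 6 hairpins 5 were called with the either-strand counts (65% of the 323 genes tested there), 1 higher in replicate 2 (28.2%) and 4 higher in replicate 1 (36.8%).

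**Figure D4:**
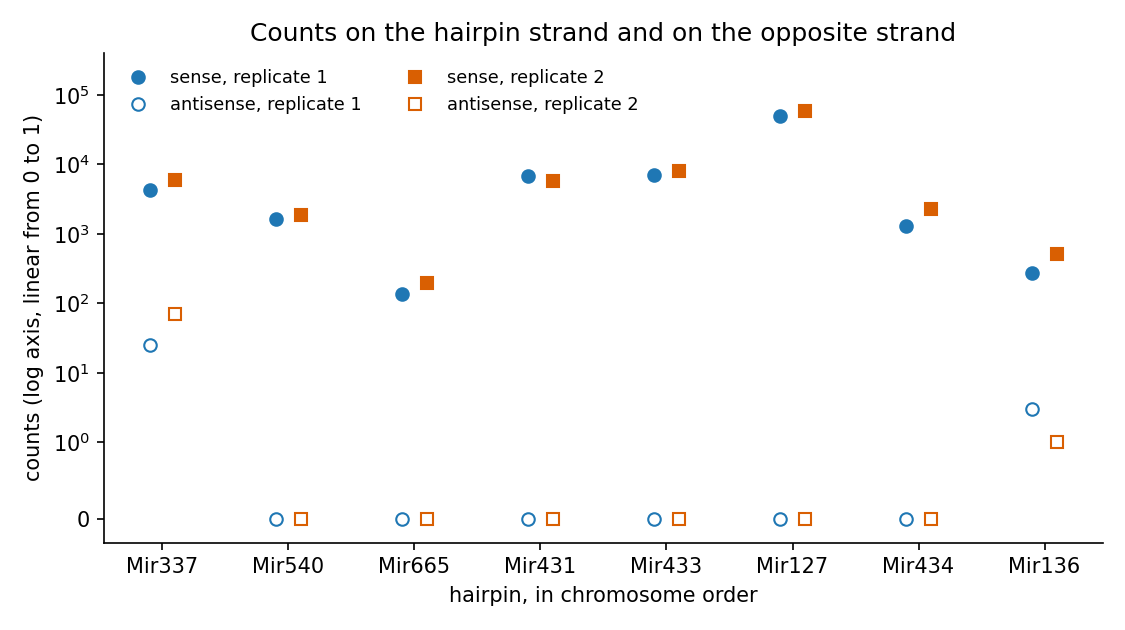
Counts on the hairpin's own strand (filled) and on the opposite strand (open) at each hairpin, in chromosome order, for replicate 1 (circles) and replicate 2 (squares), on an axis that is logarithmic above 1 and linear from 0 to 1. Antisense counts are at 0 for 6 hairpins, and reach 25 and 71 at Mir337.

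Other annotated hairpins of the same strand and stretch had fewer counts than any of the 8. Shared stretches were searched for the 8 only, so an undercount of these others through near-identical copies was not examined. Mir3070a, between Mir665 and Mir431, had 21 counts in replicate 1 and 28 in replicate 2, and Mir3070b had 25 and 20. Mir432, between Mir434 and Mir136, had 0 counts in both libraries, next to hairpins with 1279 and 2245 counts (Mir434) and 273 and 513 counts (Mir136).

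Within the Dlk1-Dio3 region from Mir770 to Mir410, the 8 hairpins held 39.9% of the counts in replicate 1 and 43.8% in replicate 2. The 38 hairpins of the distal cluster from Mir379 to Mir410, of which 32 reached 10 counts in both libraries, held 57.9% and 54.2%. The other 11 hairpins of the strand, 8 of them above that minimum and led by Mir341, held 2.17% and 1.97%. Mir127 alone, at 49971 and 59131 counts, exceeded the leading distal hairpin Mir411, at 22091 and 28541 counts.

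The 8 hairpins' summed counts were 0.689 of those of the distal cluster in replicate 1 and 0.809 in replicate 2. Of the distal hairpins tested, 12 passed the test as higher in replicate 2 and 14 as higher in replicate 1 (30.4% and 36.6% over all genes tested), and 6 did not pass it. Ratios ran from 0.181 to 1.94 over all 32 distal hairpins tested, and from 0.660 to 1.48 over the 8, a smaller set. With Mir122 out of the totals 16 and 9 passed (50% and 21.3% over all genes tested). A chosen list of 5 imprinted hairpins elsewhere, Mir335, Mir675, Mir483, Mir296 and Mir298, held 1.22% and 0.793% of all counts. It was led by the Mest-hosted Mir335, at 11407 and 7124 CPM, which is also on the adrenal cortex list. These list values are descriptions, and no test between the lists was made.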

How the data were processed

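The deposited tables hold raw counts per microRNA gene, made by the authors on mm10 with GENCODE M21, per the text deposited beside them. Which aligner and counter were used is not given in the sources used here. Of 3 count columns (either strand, sense, antisense) the sense column was used, with the 4 summary lines left out of totals. Reads mapped to several places, 31.6% and 27.0% of input in replicates 1 and 2, were not counted per gene. A gene was tested where each library gave it 10 counts or more. The shares within the group were tested with the summed counts of the 8 hairpins as library total, adjusted over all 352 genes and not over the 8 alone as first planned. For Mir127, which makes up most of that sum, this test is conservative. The 8 hairpins and the comparison lists were chosen with earlier results of these data known. Named genes were the 8, annotated hairpins between them, the 3 nearest in level to each of the 3 most abundant members, genes with a shared seed and, of each list, at most its 3 leading genes. The binomial test and its intervals were tried on simulated data that held counting error only, the error that the test assumes. That trial cannot show how the test behaves where libraries differ by more than counting error. Alternatives were other totals, count minimums, columns and denominators and each replicate left out. Level per hairpin length was added after the data had been seen. Sequences came from RefSeq (GRCm38.p6) and, for the Rtl1 messenger, GENCODE M21. Tests and intervals were computed with scipy 1.17.1, tables with pandas 2.3.3 and numpy 2.4.6 under Python 3.11.15, folding energies with ViennaRNA 2.7.2, scaling factors with edgeR 4.0.16 and DESeq2 1.42.0 under R 4.3.3, and plots with matplotlib 3.10.9.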

Additional observations from a re-analysis of the deposited data

How the results depend on the processing

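No paired analysis was possible because the series has 1 group. The share of all counts held by the 8 hairpins, 1.92%, became 2.14% without Mir122 in the total, 0.819% of all input reads and 2.12% in the either-strand column, and lay at 1.84% to 1.99% with a replicate left out. Its direction between the libraries turned as well. It was 1.99% in replicate 1 and 1.84% in replicate 2 with the full totals, and 2.00% and 2.29% without Mir122. Of the 8, the test called 3 as higher in replicate 2 and 4 as higher in replicate 1. Without Mir122 in the total these were 7 and 1. With all input reads as total 2 were called higher in replicate 1, and in the either-strand column, where Mir337 and Mir136 fall below the minimum, 1 was called higher in replicate 2 (28.2% of all genes tested there). The share of the group held by Mir127, 70.3%, was 75.7% in the either-strand column and 29.4% of the region's counts, and 69.8% to 70.8% with a replicate left out. The antisense share, 0.0626%, was 0% at hairpins without an annotated partner, and 0.0391% to 0.0861% with a replicate left out. TMM factors and DESeq2 size factors moved no hairpin's mean level by more than the SD between replicates. Both sets of factors were centred, so they shift the 2 libraries in opposite directions and leave the mean nearly unchanged. That outcome was thus nearly fixed in advance and is no check of the levels. For a left-out replicate the comparison with the SD has no meaning either, since with n = 2 the mean always moves by less than that SD. Leaving Mir122 out of the total moved the mean level by more than the SD for 5 hairpins, all upward. Input reads did so for 8, all downward, and the either-strand column for 6. The upward and downward directions follow from the totals alone, which are smaller without Mir122 and larger with input reads. With 2 libraries of 1 group no value has a check against further animals, and Mir665 and Mir136 rest on the fewest counts.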
